A study of Mus musculus with 8 samples.

Results

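The nuclear and mitochondrial genes of the respiratory chain and ATP synthase were examined complex by complex in whole mouse kidney after deletion of Xpr1, which encodes a phosphate exporter, from the renal tubule. Members were the protein-coding genes whose symbols begin with Nduf, Uqcr, Cox4 to Cox8 or Atp5, the subunit genes Sdha, Sdhb, Sdhc and Sdhd, the cytochrome genes Cyc1 and Cycs, and the protein genes of mitochondrial DNA. This gave 108 of the 46517 genes listed, 95 in the nucleus and 13 in mitochondrial DNA. The 4 Control mice (C10, C11, C13 and C14) were Xpr1lox/lox. The 4 cKO mice, named KO16, KO18, KO19 and KO20, carried Xpr1lox/lox/Pax8-rtTA/LC1, in which Pax8-rtTA, a doxycycline-dependent activator of tubule epithelium, switches on the Cre recombinase of LC1. Both groups carried the floxed alleles and drank doxycycline at 2 mg/ml for 2 weeks, starting at 8 weeks of age. Control mice were littermates without Cre or rtTA, so the transgenes and the deletion go together, and kidney cells outside the tubule are not targeted.

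The respiratory chain passes electrons from NADH (complex I) and succinate (complex II) through complex III and cytochrome c to oxygen at complex IV, and complex V uses the resulting proton gradient to make ATP. A few core subunits of complexes I, III, IV and V are made inside the mitochondrion from mitochondrial DNA, and nuclear genes provide the rest, including many small supernumerary subunits around the core. The proximal tubule is rich in mitochondria, because its salt and solute reabsorption runs on ATP from oxidation.

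Several mitochondrial genes share nearly all of their sequence with other genes, and those had few reads. For this reason the start of the gene mt-Co3, a core subunit of complex IV, is shown beside its nuclear copy Gm28437, an unprocessed pseudogene on chromosome 1 (chr1:24613189-24613971, GRCm38). Both are the first 90 bases from GENCODE vM21, 5′ to 3′.

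mt-Co3: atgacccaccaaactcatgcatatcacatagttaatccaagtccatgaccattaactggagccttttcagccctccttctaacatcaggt
Gm28437: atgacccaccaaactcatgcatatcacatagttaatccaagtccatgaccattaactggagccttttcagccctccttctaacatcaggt

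All 783 bases compared between this pair were identical, and so were all 681 bases compared between mt-Co2, another complex IV core gene, and the pseudogene Gm28661. Reads with more than 1 alignment were kept apart from gene counts in the deposited files. Of the 50-base windows in the main transcript (the longest tagged APPRIS principal in GENCODE or, with none, the longest in its basic set), 100% of mt-Co2, 99.9% of mt-Co3, 99.5% of mt-Atp6, 98.8% of mt-Nd4l and 98.0% of mt-Nd3 also occurred in another gene, and these genes had at most 13 reads in any library. The share was 62.2% in mt-Nd4, 51.1% in mt-Co1, 8.2% in mt-Nd2, 7.6% in mt-Nd5 and 0 in mt-Nd1, mt-Cytb and mt-Nd6, which were all tested. mt-Atp8 had 0 reads in all 8 libraries and no window shared with an annotated transcript of another gene. Of its bases, 21.1% overlapped another gene on the same strand. Copies outside annotated transcripts were not searched, and the reason for its lack of reads was not tested. Counts of mt-Nd4 and mt-Co1 may therefore come from part of each gene.

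Promoters were compared because the nuclear members tended to be high or low in the same libraries. Short genes at large did so too. All tested genes of up to 1024 bases had a median log2 difference from the Control mean of 1.23 in KO16, 0.53 in KO20 and -0.51 in C11. RefSeq (GRCm38.p6) gave a start-site window of 300 bases for 77 nuclear members. The 8-letter core of the NRF1 site, CGCATGCG, was present in 11 of them (14.3%), against 1.92% of 27025 promoters of all genes. YY1 (AAGATGGC) was found in 13% against 2.87%, ERR (CAAGGTCA) in 5.19% against 1.52% and GABPA (CCGGAAGT) in 6.49% against 3.99%, each searched on both strands. At least 1 of these 4 motifs, none of which contains another, stood in 36.4% of member promoters and 9.8% of all promoters. The 27025 promoters were not limited to genes expressed in kidney or matched to the members in base content. The part of promoters in the shared values was not tested. Cox6a1, a structural subunit of complex IV, and Cycs, the mobile carrier cytochrome c, are shown as 2 members with the NRF1 core and unlike values below. Each line is the 250 bases before the start, 5′ to 3′ on the minus strand, at chr5:115348959-115349208 for Cox6a1 and chr6:50566570-50566819 for Cycs, with the NRF1 core in capitals.

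Cox6a1: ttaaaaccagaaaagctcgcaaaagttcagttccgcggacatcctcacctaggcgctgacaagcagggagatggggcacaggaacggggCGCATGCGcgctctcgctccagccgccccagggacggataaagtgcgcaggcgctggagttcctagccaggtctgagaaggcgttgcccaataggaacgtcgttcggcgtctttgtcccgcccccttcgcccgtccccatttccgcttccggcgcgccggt
Cycs: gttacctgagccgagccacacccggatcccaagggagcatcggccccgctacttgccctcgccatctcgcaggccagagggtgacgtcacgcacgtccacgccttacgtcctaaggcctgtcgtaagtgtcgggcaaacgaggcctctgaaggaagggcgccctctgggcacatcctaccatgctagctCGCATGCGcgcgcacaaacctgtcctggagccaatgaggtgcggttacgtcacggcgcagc

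Reads assigned to genes ranged from 20366113 to 26155030 per library. Xpr1 stood at 80.2 to 126 CPM (read counts scaled for depth with TMM factors, which assume that most genes do not change) in Control and 5.74 to 26.5 CPM in cKO kidneys, so each library followed its label. Libraries of the same group differed in composition. Nuclear members took 1.96% to 2.96% of gene reads in Control libraries and 2.51%, 2.84%, 4.25% and 7.0% in KO18, KO19, KO20 and KO16. Mitochondrial genes took 13.7% to 15.8% in Control libraries, 11.8% to 17.5% in KO18, KO19 and KO20, and 5.91% in KO16. KO16 and KO20 leaned to short transcripts, and C11, KO18 and KO19 leaned to long transcripts. Kidney tubule markers were abundant in all 8 libraries. Of 10 proximal tubule markers 7 fell, and the list summed to 44222 to 99807 CPM in Control and 17515 to 49771 CPM in cKO libraries. Most of that sum was Kap, an androgen-regulated kidney protein (25570 to 91253 against 13485 to 46246 CPM), which did not pass (adjusted p = 0.096) and was lowest among Control libraries in C11. Slc34a1, the phosphate cotransporter of the proximal tubule, had 2125 to 6768 against 222 to 866 CPM and was highest in C11. Of 8 leukocyte markers 4 rose (92.9 to 112 against 179 to 403 CPM). In whole-kidney RNA, fewer cells of a type and less RNA per cell cannot be told apart. The part of these marker and length shifts in the values of the members was not tested.

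With all 8 libraries, whose values disagreed within groups, 1 member passed the test. Of the 108, 100 had enough reads to be tested (93 nuclear and 7 mitochondrial), and Cox6a2 was the only member past an adjusted p of 0.05 in edgeR's quasi-likelihood test with Benjamini-Hochberg adjustment over 15382 genes. Among all tested genes 7.5% rose and 6.61% fell, so 0 members higher and 1 lower lay below the background in both directions. By sign alone 72 members had a positive and 28 a negative log2 fold change of cKO against Control, with a median of 0.49 over members, 0.59 over nuclear members and 0.01 over all genes. Groups of libraries did not overlap for 1 tested member that was higher (Cox6b2) and 4 that were lower (Ndufs1, Cox6a2, Atp5g2 and mt-Nd5), against 11.2% and 11.6% of all tested genes.

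**Figure D1:**
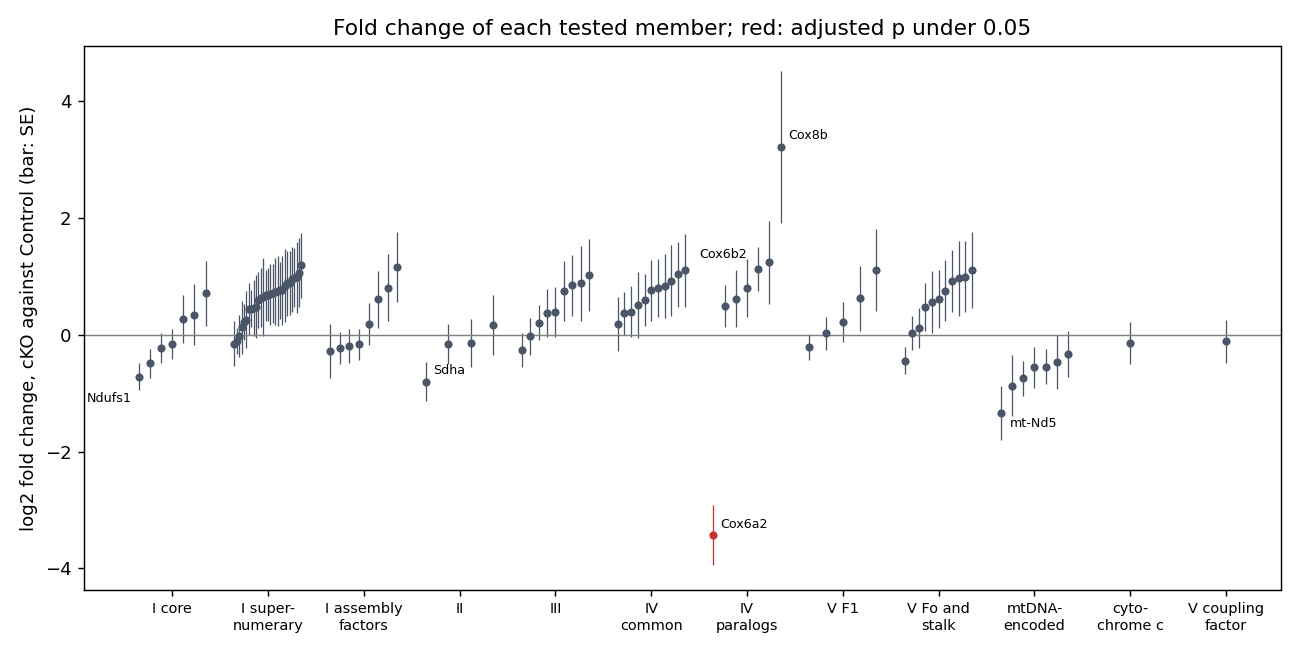
Log2 fold change of each tested member (y axis, cKO against Control; bars are the standard error) by complex (x axis), ordered within a complex by value. Cox6a2 is the only member drawn in red (adjusted p under 0.05); most supernumerary and small subunits lie above 0 with wide errors, and the 7 mitochondrially encoded genes lie below it.

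The wide errors came from libraries that disagreed within a group. The median nuclear member differed from the mean of the Control libraries (log2) by 0.39 in C10, -0.74 in C11, 0.14 in C13 and 0.18 in C14, and by 1.58 in KO16, -0.51 in KO18, -0.36 in KO19 and 0.74 in KO20. KO16 and KO20 were thus above all Control libraries, and KO18 and KO19 lay between C11 and the other Control libraries. Without KO16 the median log2 fold change of nuclear members was -0.01 instead of 0.59, and without KO16 and KO20 it was -0.50.

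**Figure D2:**
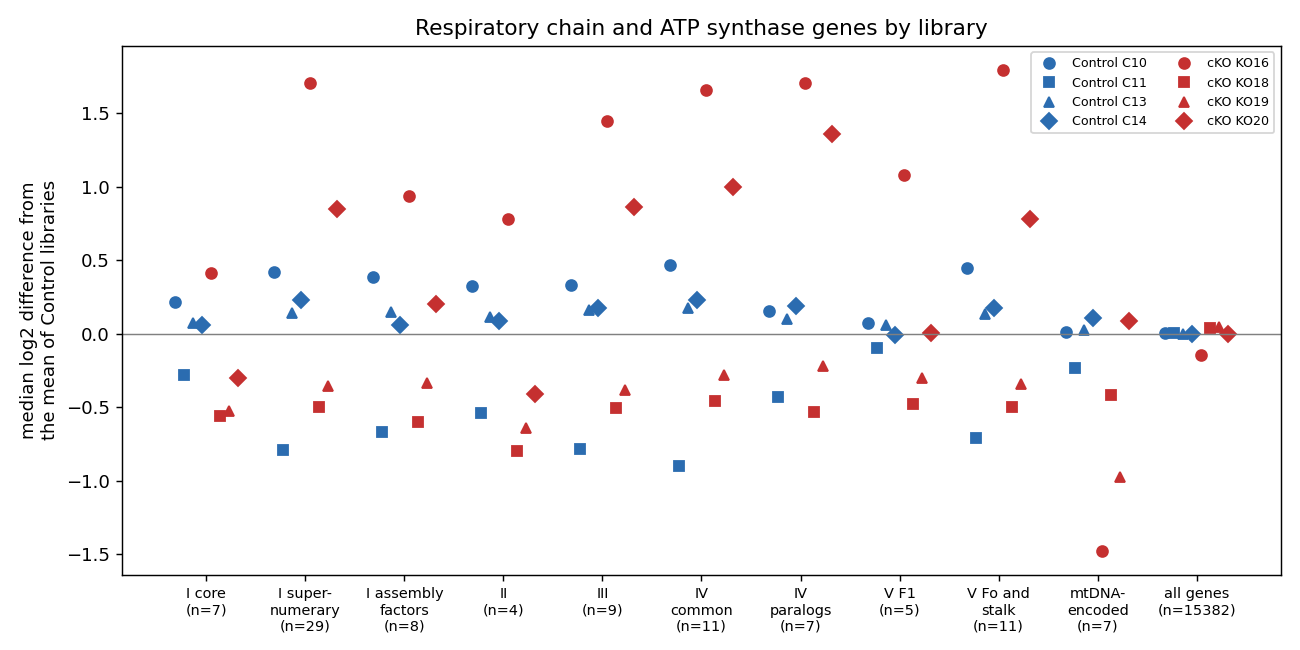
Median log2 difference from the mean of the Control libraries (y axis) for the tested members of each complex (x axis, n in brackets), 1 point per library. KO16 and KO20 lie above the Control libraries for supernumerary complex I, complex III, complex IV and Fo subunits, KO18, KO19 and C11 lie low, and the mitochondrially encoded genes show KO16 lowest at -1.48.

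Complex I has 7 nuclear core subunits, which carry the flavin and the iron-sulfur clusters, and none passed the test with all 8 libraries. Their median log2 fold change was -0.16 (range -0.72 to 0.71, 4 of 7 negative). Ndufs1, the largest iron-sulfur subunit (chromosome 1 from 63143596 to 63176833, minus strand), stood at 321, 377, 359.8 and 333 CPM in C10, C11, C13 and C14 and at 148, 268, 241 and 188 CPM in KO16, KO18, KO19 and KO20. Every cKO library lay below every Control library, and the log2 fold change was -0.72 with SE 0.23 and adjusted p = 0.0715. Ndufs1 did pass with DESeq2 (adjusted p = 0.0047), with the length trend of each library removed (0.035), with the length slope as a covariate (0.0017) and with 1 surrogate variable (0.0022). These settings called 9.52% to 17.3% of all genes lower. Ndufs1 did not pass with the other scalings, limma-voom, the robust fit or the other filters. Nor did it pass with any 1 library left out, or without KO16 and KO20. Ndufv1, which binds NADH and the flavin, held 281 to 318 CPM in Control libraries and 303, 179, 219 and 143 CPM in KO16, KO18, KO19 and KO20 (-0.49, SE 0.25, adjusted p = 0.251). Only KO16 reached the Control range, and without KO16 the adjusted p was 0.030. Ndufv1 passed only in fits that left out KO16. Leaving out the highest cKO library lowers the cKO values by the choice itself, so no conclusion is drawn from that p. The highest core value was that of Ndufv2, another iron-sulfur subunit, at 0.71 (adjusted p = 0.464), with KO16 at 1253 CPM and C11 at 178 CPM.

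The 29 supernumerary subunits of complex I had a higher median, 0.68, with 26 positive and 3 negative values between -0.16 and 1.19, and none passed the test. Their library medians were 0.42, -0.79, 0.14 and 0.23 in C10, C11, C13 and C14 and 1.70, -0.50, -0.35 and 0.85 in KO16, KO18, KO19 and KO20. Ndufb8, a membrane-arm subunit, had the highest fold change: 411, 166, 304 and 324 CPM in Control and 1538, 264, 332 and 612 CPM in cKO libraries in the same order (1.19, SE 0.55, adjusted p = 0.204). KO18 and KO19 lay inside the Control range. The lowest were Ndufa10 (-0.16, adjusted p = 0.844) and Ndufa9, a subunit beside the ubiquinone pocket (-0.11, adjusted p = 0.804). Ndufa9 stood at 206 to 229 CPM in Control and 171 to 279 CPM in cKO libraries.

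The 8 Nduf assembly factors, which help build complex I and are absent from the finished enzyme, had a median of 0.01, with 4 positive and 4 negative values. Ndufaf2 ranged from 15.5 to 42.3 CPM in Control and stood at 159, 24.6, 26.7 and 71.7 CPM in KO16, KO18, KO19 and KO20 (1.16, SE 0.60, adjusted p = 0.253). Of its exonic bases, 65.6% overlap another gene on the opposite strand. Ndufaf8, an assembly partner of Ndufaf5, was at 0.81 (adjusted p = 0.416), and Ndufaf6 was lowest at -0.28 (adjusted p = 0.759).

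Complex II, which is also the succinate dehydrogenase of the citric acid cycle and has no mitochondrially encoded subunit, had a median of -0.15 with 3 of 4 subunits negative. Sdha, the flavoprotein that oxidises succinate, stood at 441, 956, 591 and 542 CPM in C10, C11, C13 and C14 and at 278, 484, 463 and 227 CPM in KO16, KO18, KO19 and KO20 (-0.80, SE 0.34, adjusted p = 0.162). The groups overlapped through C10 alone on the Control side, and C11 was far above the other libraries. Sdhb, the iron-sulfur subunit, was above the Control mean in KO16 and KO20, where Sdha was below it, and both were below it in KO18 and KO19. Sdhb had 799, 335, 635 and 677 CPM in Control and 1449, 314, 322 and 664 CPM in cKO kidneys (0.17, adjusted p = 0.872). The membrane anchors Sdhc and Sdhd were at -0.14 and -0.16 (adjusted p = 0.868 and 0.818).

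The 9 subunits of complex III had a median of 0.39 with 7 positive. The large core proteins were nearest to 0 or negative: Uqcrc1 at -0.03 (390.0 to 470.4 CPM in Control, 302 to 758 CPM in cKO libraries) and Uqcrc2 at -0.26 (503 to 809 against 450.5 to 898 CPM). The catalytic subunits Cyc1, cytochrome c1, and Uqcrfs1, the Rieske iron-sulfur protein, were at 0.39 and 0.21 (adjusted p = 0.614 and 0.718). The small subunits Uqcr11 and Uqcrh had the smallest p of this complex, at 1.02 and 0.85 (adjusted p = 0.333 and 0.342). Uqcrh, the hinge protein, had 727, 255, 562 and 607 CPM in Control and 1784, 423, 426 and 1237 CPM in cKO libraries. Cycs stood at 50.5, 19.5, 39.7 and 42.5 CPM in Control and 41.7, 24.1, 22.3 and 49.7 CPM in cKO libraries (-0.14, adjusted p = 0.846), so its KO16 and KO20 values lay within the Control range, unlike those of Cox6a1, which holds the same promoter core. Cycs and Cox6a1 also differ in exonic length (3404 and 702 bases) and in windows shared with other genes (28.5% and 12.3%).

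All 11 common nuclear genes of complex IV had positive values, from 0.18 to 1.11 with a median of 0.76, and none passed. Cox4i1, the large regulatory subunit, stood at 1459, 534, 1099 and 1173 CPM in Control and 5519, 743, 889 and 2029 CPM in cKO libraries (1.11, SE 0.63, adjusted p = 0.299). KO16 held more than any Control library by a wide margin and KO18 and KO19 fell inside the Control range. Cox5a and Cox5b, both matrix-side subunits, were at 0.39 and 0.80 (adjusted p = 0.621 and 0.342). Cox6a1 had 578, 313, 514 and 502 against 1388, 332, 395 and 764 CPM (0.59, adjusted p = 0.447), Cox6b1 was at 1.03 (adjusted p = 0.278), Cox7a2 at 0.76 (0.404), Cox8a at 0.37 (0.579) and Ndufa4, a subunit of complex IV despite its name, at 0.51 (0.621). Cox7c was lowest at 0.18, with 53% of its windows shared with other genes.

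The tissue-restricted paralogs of complex IV held the only call. Cox6a2, the heart and skeletal muscle form of subunit 6a (chromosome 7 from 128205435 to 128206387, minus strand), had 43, 39, 60 and 55 reads in C10, C11, C13 and C14 and 5, 12, 2 and 2 reads in KO16, KO18, KO19 and KO20. It fell from 2.17 ± 0.462 to 0.199 ± 0.154 CPM (SD, n = 4), which is -3.43 on the log2 scale (SE 0.52, adjusted p = 0.003). The groups were far apart, and its log2 fold change stayed between -4.06 and -2.79 with an adjusted p of at most 0.0149 in every setting run. Its level is low: per kilobase of exon it reached 3.19 CPM in Control kidneys against 679 CPM for Cox6a1. Of its exonic bases, 10.3% overlap Itgad on the opposite strand, and the strand setting of the counting is not given in the sources used here. Skeletal muscle markers were near 0, with 0 of 7 reaching the test, at most 1.54 CPM summed in any library and no read of Myh2.

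Cox6b2, the testis form of subunit 6b, was the member nearest to a call upward. It had 79, 80, 66 and 88 reads in Control and 237, 145, 133 and 216 in cKO libraries, or 3.45 ± 0.493 against 7.59 ± 4.03 CPM (1.13, SE 0.38, adjusted p = 0.0801). All cKO libraries lay above all Control libraries, KO19 at 4.03 CPM next to C14 at 3.90 CPM. Cox4i2, a form induced in low oxygen, was at 0.80 (adjusted p = 0.351) from 0.672 CPM in Control kidneys. Ndufa4l2, the low-oxygen paralog of Ndufa4, was at 0.49 (adjusted p = 0.428), and Cox7a2l, which takes part in supercomplexes, at 0.62 (adjusted p = 0.469). Cox7b2 and Cox8c were not tested and had no Control read.

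Cox8b and Cox7a1, forms of muscle and brown fat, varied most. Cox8b had 57, 5, 14 and 44 reads in Control and 702, 6, 69 and 278 in cKO libraries (3.22, SE 1.3, adjusted p = 0.146), and Cox7a1 had 555, 181, 426 and 474 against 1921, 358, 386 and 1149 (1.24, SE 0.71, adjusted p = 0.307). In both genes KO16 and KO20 were the highest libraries, C10 the highest and C11 the lowest Control library. The median nuclear member had the same order (1.58 in KO16, 0.74 in KO20, 0.39 in C10 and -0.74 in C11), so it is not particular to these 2 genes. Ucp1, the uncoupling protein that defines brown fat, was also highest in KO16, KO20 and C10: 28.5, 1.56, 4.04 and 21.1 CPM in Control and 104, 2.11, 10.1 and 74.3 CPM in cKO libraries. The 5 fat markers summed to 2.77 to 37.6 CPM in Control and 3.94 to 162 CPM in cKO libraries, 4 of them were tested and none passed. Cidea, Adipoq and Plin1 were also highest in KO16 and KO20, but with C14 or KO19 next rather than C10. Lep went the other way, with 1, 9, 8 and 1 reads in KO16, KO18, KO19 and KO20. The part of fat in the Cox8b and Cox7a1 values was not tested.

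**Figure D3:**
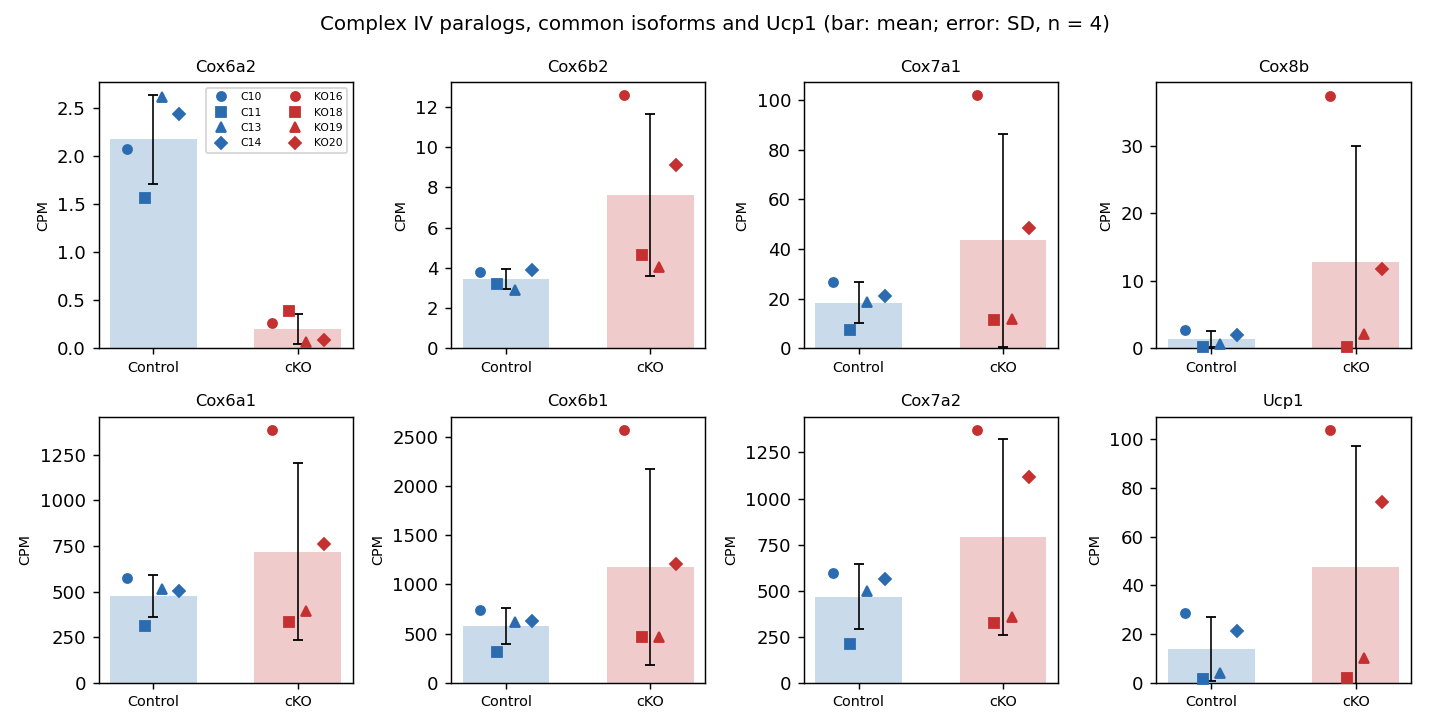
CPM in each library (points), mean (bar) and SD (n = 4) of 4 complex IV paralogs, 3 common forms and Ucp1, with a linear axis from 0 in each panel. Cox6a2 is lower in all 4 cKO libraries, and Cox7a1, Cox8b, the common forms and Ucp1 are high in KO16 and KO20.

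In complex V the catalytic F1 head and the membrane Fo and stalk parts were described apart. The 5 F1 genes had a median of 0.22. The catalytic pair, Atp5b (beta) and Atp5a1 (alpha), stood at 0.02 and -0.21 (adjusted p = 0.97 and 0.598). Atp5b had 3406, 3181, 3491 and 3335 CPM in Control and 5299, 2721, 2738 and 2874 CPM in cKO libraries, so KO16 was the only cKO library above the Control range and the others were below it. The small F1 gene Atp5e (epsilon) had the highest value, 1.11 (SE 0.70, adjusted p = 0.35), and Atp5c1 (gamma) was at 0.63 (adjusted p = 0.523).

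The 11 Fo and stalk genes had a median of 0.62 with 10 positive. Atp5mpl, a small Fo-associated protein, was at 0.91 (adjusted p = 0.313), Atp5j2, another Fo protein, at 1.10 (adjusted p = 0.319) and Atp5o, the stalk protein that confers oligomycin sensitivity, at 0.62 (adjusted p = 0.479). The 3 genes of the rotating c-ring, whose mature proteins are the same, differed in counted reads. Per kilobase of exon Atp5g3 reached 295 CPM, Atp5g1 13.5 CPM and Atp5g2 1.13 CPM in Control kidneys. Reads with more than 1 alignment are missing from these values, so that of Atp5g2, with 87.4% of its windows shared, may be too low. Exonic length was 4912 bases in Atp5g1 and 2181 in Atp5g3, whose main transcript has 723, so the levels are not closely comparable. Their fold changes were 0.11, 0.75 and -0.44 (adjusted p = 0.872, 0.4 and 0.261). In Atp5g2 the cKO libraries (1.09 to 1.56 CPM) lay below the Control libraries (1.82 to 1.98 CPM), but 87.4% of its windows occur in other genes. Sharing above 50% was found in 11 members and no sharing in 50. Atp5s, a coupling factor, was at -0.11 (adjusted p = 0.887).

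All 7 tested mitochondrially encoded genes had negative values, between -1.34 and -0.33 with a median of -0.56, and none passed. mt-Nd5, the distal proton-pumping subunit of complex I, stood at 15922, 18290, 18467 and 18154 CPM in C10, C11, C13 and C14 and at 1775, 10073, 7465 and 8727 CPM in KO16, KO18, KO19 and KO20 (-1.34, SE 0.46, adjusted p = 0.093). The groups did not overlap, and KO16 was far below the rest. mt-Nd2, another pumping subunit, had 24955, 16091, 23430 and 22518 against 9857, 12943, 10100 and 18899 CPM (-0.75, SE 0.30, adjusted p = 0.145), with KO20 inside the Control range. mt-Cytb, the cytochrome b of complex III, was at -0.56 (12363 to 36466 CPM in cKO libraries, 32629 to 36744 CPM in Control, adjusted p = 0.347), and mt-Co1, the catalytic subunit of complex IV, at -0.55 (29500 to 55534 against 44828 to 72919 CPM, adjusted p = 0.288).

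mt-Nd1 and mt-Nd4 were at -0.33 and -0.47 (adjusted p = 0.655 and 0.577), with KO20 at 28593 and 16392 CPM, above all Control libraries. mt-Nd6, the only protein gene on the other strand of mitochondrial DNA, had 103, 83.7, 103 and 149.6 CPM in Control and 16.2, 75.0, 33.4 and 116 CPM in cKO libraries (-0.87, adjusted p = 0.333). In all 7 of these genes KO16 was the lowest of the 8 libraries and KO19 the next lowest. mt-Nd3, under the filter on low counts, had 0, 0, 0 and 1 read in Control and 13, 6, 9 and 12 reads in cKO libraries. With no filter it passed the test (adjusted p = 0.00708), on 41 reads from a gene of which 98.0% is shared.

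**Figure D4:**
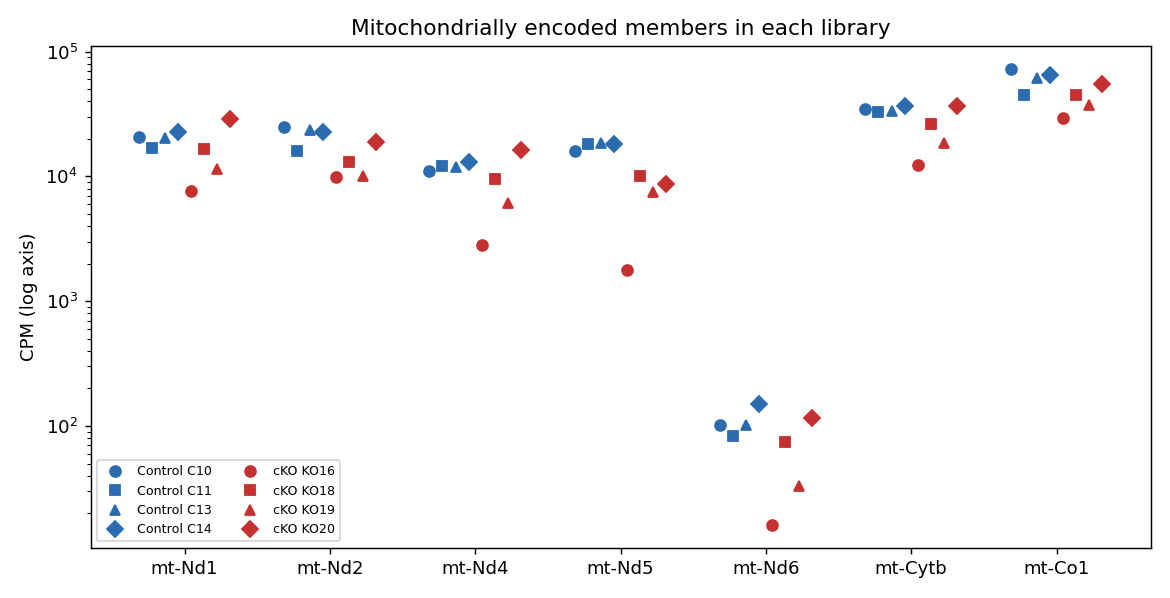
CPM (log axis) of the 7 tested mitochondrially encoded genes in each of the 8 libraries. In mt-Nd5 all cKO libraries lie below the Control libraries (1775 to 10073 against 15922 to 18467 CPM), whereas in mt-Nd1 and mt-Nd4 KO20 lies above them.

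Differences between parts of the chain within a library do not depend on how libraries are scaled. Supernumerary minus core complex I (medians, log2) was -0.02 ± 0.33 in Control and 0.67 ± 0.64 in cKO libraries (SD, n = 4), with 1.29 in KO16, 0.06 in KO18, 0.17 in KO19 and 1.15 in KO20. C10 reached 0.20, so KO18 and KO19 lay within the Control range. Common complex IV minus complex II was -0.0045 ± 0.24 against 0.75 ± 0.51, with 0.88, 0.34, 0.36 and 1.41 in KO16, KO18, KO19 and KO20. All 4 exceeded the highest Control library, C10 at 0.14. Nuclear minus mitochondrially encoded members was 0.01 ± 0.37 against 1.06 ± 1.37, with 3.06 in KO16 and -0.09, 0.62 and 0.66 in KO18, KO19 and KO20, beside 0.38 in C10. Fo and stalk minus F1 was 0.01 ± 0.43 against 0.36 ± 0.45, and supernumerary subunits minus assembly factors 0.02 ± 0.12 against 0.37 ± 0.39, where KO18 and KO19 stood at 0.10 and -0.02. These differences are medians over chosen genes and were not tested.

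Complexes differ in gene length. Median exonic length was 1251 bases for supernumerary and 2178 for core subunits of complex I, 1214 for common complex IV and 2744.5 for complex II genes. Across the 93 nuclear members, which share libraries and are not replicates, log2 fold change and exonic length had a Spearman rho of -0.39, and -0.56 with the length of the main transcript. Over all genes with a length rho was -0.24. Nuclear members of up to 1024 bases had a median of 0.75, those of 1025 to 2048 bases 0.63 and longer members 0.14, while all tested genes of these classes had 0.39, 0.41 and -0.05. In each class the median member thus lay above the median gene of that class. Among the cKO libraries this held in KO16 and KO20, whereas in KO18 and KO19 the median member lay below that gene in each class. For genes over 2048 bases, members stood at -0.50 in KO18 and -0.36 in KO19 against 0.10 and 0.08. The slope on log2 exonic length over the 100 tested members was -0.15, as over all genes, but -0.21 over nuclear members alone. On main transcript length it was -0.35 over members, -0.34 over nuclear members and -0.17 over all genes. Per library the slope of the members on exonic length was -0.21 in KO16 and -0.27 in KO20, and 0.05 and 0.03 in KO18 and KO19. All genes gave -0.53 in KO16, -0.26 in KO20, 0.22 in C11, 0.17 in KO18 and 0.11 in KO19.

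**Figure D5:**
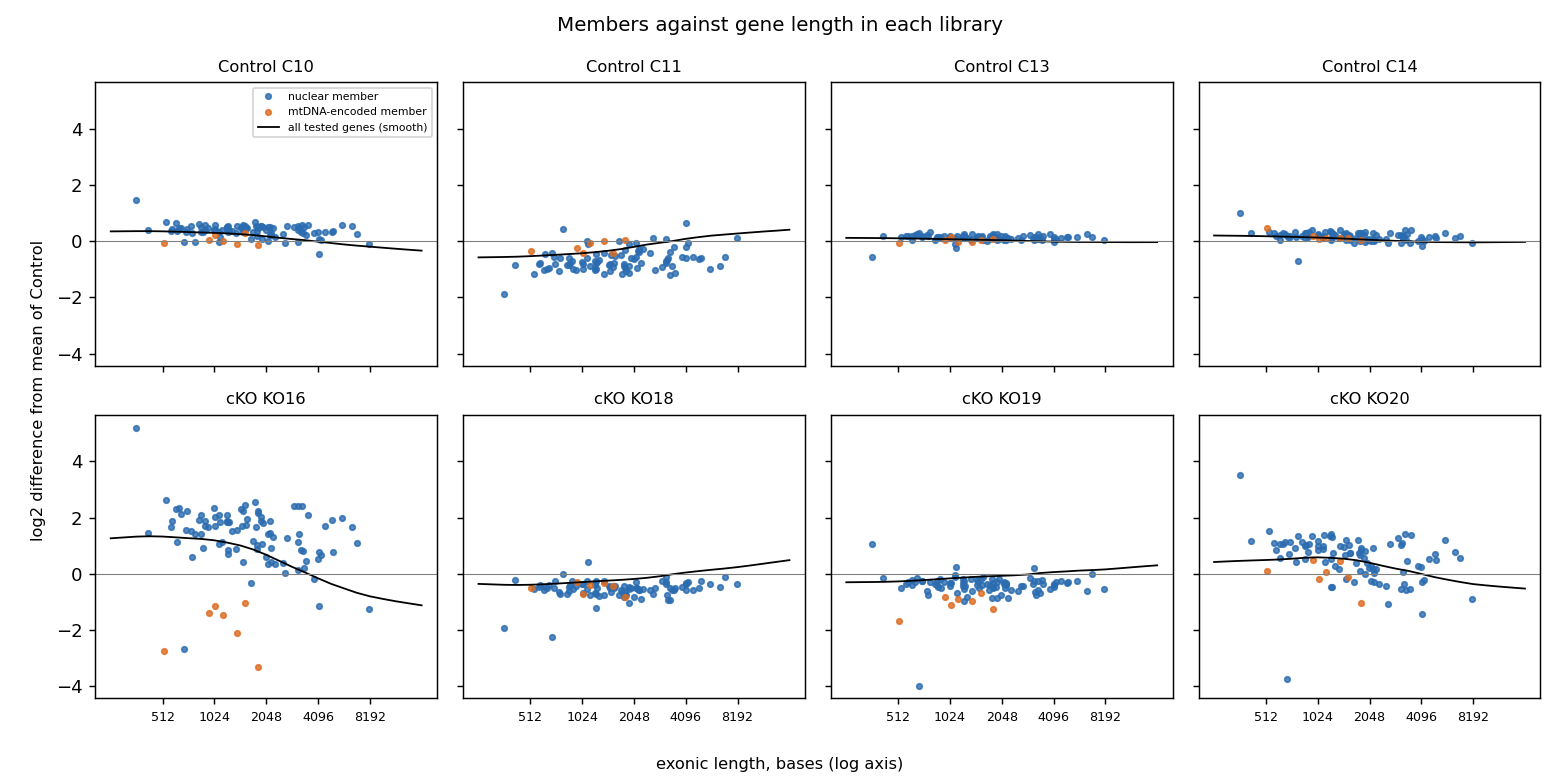
Log2 difference of each tested member from the mean of the Control libraries (y axis) against its exonic length in bases (log axis), 1 panel per library, with a smooth line over all tested genes. Short genes lie high in KO16 and KO20, where nuclear members lie mostly above the line and mitochondrially encoded genes below it in KO16, and C11, KO18 and KO19 lean the other way.

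Settings that take account of length or of the libraries that stand apart moved the count of calls, and the background with it. With the length trend of each library removed, Cox6b2 was higher and Ndufs1, Ndufaf6 and Cox6a2 were lower, while 9.72% and 9.55% of all genes were called higher and lower. The nuclear median was then 0.18. With the length slope as a covariate 3 members were higher and 15 lower (16.6% and 16.6% of all genes), and with 1 surrogate variable, a hidden factor estimated from the counts, 8 and 8 (18% and 17.3%). DESeq2 called Cox6b2 higher and Ndufs1, Cox6a2, mt-Nd2 and mt-Nd5 lower (11.1% and 9.52%). In each of these settings the share of the 100 members called lay below the background in both directions.

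Leaving out libraries turned the sign of most members. Without KO16, 0 members were higher and Ndufv1, Ndufa10, Cox6a2 and mt-Nd5 were lower (8.71% and 8.52% of all genes). Without KO16 and KO20, 99 of 100 members were negative and Ndufv1, Cox6a2 and mt-Nd5 passed (8.17% and 8.4%). Without C11 as well, 0 were higher and 94 lower, where 29.5% and 28.2% of all genes were called, and the nuclear median was -0.69. With these 3 libraries left out and libraries scaled by their totals alone, 4 members were higher and 23 lower, against 59.8% and 9.19% of all genes. The median over members was then -0.11 and that over all genes 0.59. KO16 and KO20 had the highest nuclear medians of the cKO libraries (1.58 and 0.74), and C11 the lowest of any library (-0.74). Leaving these libraries out thus lowers the nuclear members by the choice itself, and no conclusion is drawn from the lower values. In that comparison 2 cKO libraries (KO18 and KO19) face 3 Control libraries. Both lean to long transcripts (slope over all genes 0.17 and 0.11, against -0.15, -0.03 and -0.04 in C10, C13 and C14), and the part of this in the 94 calls was not tested.

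With all 8 libraries, the sign of the nuclear median was positive under each scaling run, from 0.59 with TMM to 0.82 with library totals, which moved the median of all genes to 0.34. The core of complex I and complex II turned from -0.16 and -0.15 to 0.14 and 0.11 with library totals. The mitochondrially encoded median was negative under every setting, from -0.92 without KO20 to -0.14 with totals and without KO16 and KO20.

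Lists of neighbouring mitochondrial genes were read against the same background, 7.5% higher and 6.61% lower. Of 42 tested assembly factors outside the naming rule, 4 fell and none rose, with a median of -0.05, a share near that background. Acad9, a complex I assembly factor related to acyl-CoA dehydrogenases, had 68.7, 78.7, 75.4 and 65.2 CPM in Control and 22.1, 32.6, 34.2 and 16.8 CPM in cKO libraries, with no overlap (-1.44, SE 0.26, adjusted p = 0.00679). Tmem186 and Foxred1, also for complex I, and Uqcc1, for complex III, fell by 0.74, 0.61 and 0.61 (adjusted p = 0.0222, 0.0479 and 0.0466). Without C10, C13, C14, KO19 or KO20 the call of Tmem186 was lost (adjusted p up to 0.0834) and the list held 1 call, that of Acad9, which passed in every setting run (adjusted p up to 0.0481).

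Among 31 genes of mitochondrial DNA expression and biogenesis 1 fell, a share below the background of 6.61%. This was Fastkd1, an RNA-binding protein of mitochondria (-1.09, SE 0.26, adjusted p = 0.0229; 34.5 to 43.8 CPM in Control, 10.6 to 22.7 CPM in cKO libraries). Its call was lost without C10, C13, C14 or KO20 (adjusted p up to 0.0648). The list's median was -0.38 with 26 negative values, and -0.04 with library totals. The mitochondrial helicase Twnk was at -0.83 (adjusted p = 0.112), the coactivator Ppargc1a at -0.58 (0.347), the mitochondrial transcription factor Tfam at -0.09 (0.892) and the nuclear receptor Esrra at 0.11 (0.782).

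Of 18 genes of pyruvate dehydrogenase and the citric acid cycle, 6 fell and none rose, against 6.61% and 7.5% of all tested genes, with a median of -0.57. Suclg2, the GTP-forming subunit of succinyl-CoA ligase, had 346 to 368 CPM in Control and 133 to 158 CPM in cKO libraries (-1.30, SE 0.18, adjusted p = 0.00187), and Idh2, the mitochondrial isocitrate dehydrogenase, 449 to 490.0 against 189 to 242 CPM (-1.05, SE 0.18, adjusted p = 0.0062). Neither group overlapped, and KO16 and KO20 lay with the other cKO libraries in Suclg2. Pdha1, Dlst and Sucla2 fell by 0.79, 0.77 and 0.88 (adjusted p = 0.0215, 0.031 and 0.0265). The list held 2 calls with upper-quartile factors, with library totals or without C10, C13, C14, KO19 or KO20. Of 10 proximal tubule markers, 7 were also called lower in the same cKO libraries. Whether these genes vary with the markers from library to library was not tested. Cs, citrate synthase, was at -0.09 (adjusted p = 0.823).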

How the data were processed

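Cutadapt 1.3, STAR 2.4.0g and HTSeq 0.6.1 are named for GRCm38 in the submitters' processing notes. The authors deposited raw counts of reads per Ensembl gene, 1 file for each of the 8 libraries, prepared from 500 ng of RNA by a stranded protocol, per the labels. Lines that name no gene (39.7% to 56.2% of each file's total) were kept out. Their share was highest in KO20 (56.2%) and KO16 (52.0%) and lowest in C11 (39.7%), and its part in the member values was not tested. Symbols and lengths came from GENCODE vM21, which matched 46005 identifiers. The fit used edgeR 4.0.16 (R 4.3.3): filterByExpr (minimum count 10, minimum total 15), TMM factors and the quasi-likelihood F test, with Benjamini-Hochberg adjustment over 15382 genes at 0.05. CPM are TMM-scaled, and library differences used log2 CPM with a prior count of 2. The quasi-likelihood fit, with and without the length trend removed, was run on simulated counts. These had the same dispersion for every gene and fewer changed genes than were called here. The other settings were not run on simulated counts.

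The members, lists and tests were chosen with earlier results of these data known. Named genes were the mitochondrially encoded members, core members and paralogs fixed by name, members past the test or the 2 with the smallest p per complex, the extremes of each complex, and the 2 smallest p of each further list. Others were named after their values were seen, and some genes within the counts are not reported here by name. Alternatives were upper-quartile and RLE factors, totals, DESeq2 1.42.0, limma-voom (limma 3.58.1), a robust fit, other filters (none, or a mean of 1 CPM), length corrections (lowess span 0.3), 1 surrogate variable (sva 3.50.0) and libraries left out. The labels name animals but no litter, so p-values rest on the spread among these libraries, whose common biological coefficient of variation was 0.386.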

Additional observations from a re-analysis of the deposited data

Results flagged for a closer look

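In 132 groups of 4 libraries, 11 held a library whose gap to its nearest neighbour exceeded Dixon's 95% critical value for groups of 4. Chance alone gives about 1 in 20 for independent groups. These groups are genes and medians from the same libraries and are not independent, so the count was not tested against that rate. KO16 stood apart from the other cKO libraries in Ndufa9 (279 CPM, others 171 to 183), Sdhd (729.5, others 277 to 328), Uqcrc1 (758, others 302 to 371), Uqcrc2 (898, others 450.5 to 513) and Atp5b (5299, others 2721 to 2874). KO20 was low in Idh2 (189 CPM, others 235 to 242). Among Control libraries, C11 was low in Uqcrc1 (390.0 CPM, others 464.5 to 470.4) and high in Fastkd1 (43.8 CPM, others 34.5 to 35.3), and C10 was low in mt-Nd5 (15922 CPM, others 18154 to 18467). C11 also stood apart in the median log2 difference from the Control mean of complex III (-0.78, others 0.16 to 0.33) and of the complex IV paralogs (-0.43, others 0.10 to 0.19).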

How the results depend on the processing

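The call of Cox6a2 held in every setting run. The count of members called higher, 0 with all libraries, was 1 with library totals, DESeq2, no filter, the length trend removed, or without KO16 and KO20 with totals, 3 with the length slope as covariate, 8 with 1 surrogate variable, and 4 without KO16, KO20 and C11 with totals. The count called lower, 1, became 4 with DESeq2, 3 with the length trend removed, 15 with the length slope, 8 with the surrogate variable, 3 without KO16 and KO20, 94 without C11 as well, and 23 for the latter with totals. Leaving out 1 library gave 0 to 1 higher and 1 to 4 lower. The causes were not tested.

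Without KO16 and KO20 the medians were -0.58 for core and -0.51 for supernumerary complex I, -0.76 for complex II, -0.50 for complex III, -0.44 for common complex IV, -0.28 for its paralogs, -0.39 for F1, -0.47 for Fo and stalk, -0.84 for Atp5s and -0.50 for nuclear members. Without C11 as well they were -0.68, -0.74, -0.94, -0.65, -0.65, -0.64, -0.46, -0.63, -1.04 and -0.69 in that order, -0.69 for the Nduf assembly factors and -0.97 for Cycs. With totals in that setting supernumerary complex I stood at -0.16 and the complex IV paralogs at -0.0448. The mitochondrially encoded median stayed within the spread between libraries in every setting.

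The length slope, -0.15, was 0.0494 with the length trend removed, 0.0432 without KO16 and KO20 (0.0410 with totals), 0.0672 without C11 as well (0.0672 with totals) and -0.35 on main transcript length.

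Signs turned with a call without KO16, KO20 and C11, to -1.18 for Sdhb, -0.41 for Uqcrfs1, -0.61 for Cyc1, -0.65 for Cox4i1, -0.63 for Cox5a, -0.48 for Cox5b, -0.36 for Atp5b, -0.84 for Atp5c1, -0.59 for Atp5o, -1.10 for Ndufa4, -0.59 for Cox6a1, -0.55 for Cox6b1, -0.97 for Cox7a1, -0.74 for Cox7a2, -0.65 for Cox7a2l, -0.53 for Cox8a, -0.67 for Atp5g1, -0.62 for Atp5g3, -0.76 for Uqcr11, -0.61 for Uqcrh, -0.62 for Atp5mpl, -0.56 for Ndufaf2, -0.86 for Ndufaf8 and -0.95 for Atp5e. With totals in that setting they turned to 0.38 for Sdha, -0.61 for Sdhb, 0.29 for Atp5a1, -0.52 for Ndufa4 and -0.39 for Cox7a1, and with the length slope to -0.47 for Sdhb. The settings with totals that leave out KO16 and KO20, or these and C11, and main transcript length, were chosen after seeing the data. With either scaling, leaving out KO16, KO20 and C11 lowers the nuclear members by the choice itself. No conclusion is drawn from the turned signs. Of the other values of named genes, 978 stayed on the same side or within 1 SE, 60 gained a call, 16 lost one and 180 moved by more than 1 SE without a call. No paired analysis was possible because the animal numbers in the labels differ between the groups and no label ties a Control to a cKO animal.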
